A study of Homo sapiens with 6 samples.

Results

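The genes of the cytosolic ribosomal proteins were followed through a short oxaliplatin treatment of colorectal carcinoma cells. They were chosen by symbol alone, as RPL or RPS followed by a number and, for paralogs and isoforms, the letters A, X or L, together with RPLP0, RPLP1, RPLP2 and RPSA. Pseudogenes were not analysed here. The rule gave 85 genes of the 27942 in the count table, 53 of the large (60S) subunit and 32 of the small (40S) subunit, each with a single entry. HCT116 is an established human colorectal carcinoma line with wild-type p53. It was grown in RPMI medium with fetal bovine serum and either left untreated (NT) or exposed for 24 h to 0.5 µM oxaliplatin (OXA), a platinum drug that forms DNA adducts. Polyadenylated RNA was made into stranded libraries, 3 per group, each from its own sample of cells. Neither the labels nor the methods say whether the samples of a group were separate cultures, so p-values measure the spread between these libraries, which may be technical. All cells were of 1 line at 1 dose and 1 time.

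Ribosomal proteins are needed in near equal amounts, since each mature ribosome holds a single copy of most of them. Their mRNAs are among the most abundant of dividing cells, and many begin with a terminal oligopyrimidine (TOP) tract, a C at the cap followed by a run of C and T, through which mTORC1 and LARP1 set their translation and stability. A few ribosomal proteins have a second gene, a paralog, that encodes a close relative used in some tissues or conditions. When ribosome assembly is disturbed, RPL5 and RPL11 leave with the 5S rRNA and bind MDM2, the ubiquitin ligase of p53, and RPS27L is known as a direct target of p53.

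The start of the transcript shows how alike most of these genes are in the feature that the TOP regulators read. A C at the annotated first base followed by 4 bases each C or T, read on the strand of the gene, stood at the start of 43 of the 67 tested ribosomal protein genes with an entry in the RefSeq promoter table (64.2%). Among all 10396 tested genes with an entry the share was 5.38%, and among all 27305 promoters listed there it was 4.04%. When the motif could begin up to 5 bases to either side of the start, the shares were 77.6% of the ribosomal protein genes and 22.9% of all genes tested. The windows of the genes on which the results turn follow, each with 10 bases before and 20 bases from the annotated start, 5′ to 3′ on the gene's strand, from RefSeq on GRCh38.p14. Capitals mark the run of C and T that begins at the start.
RPLP0, chr12:120201092-120201121, minus strand: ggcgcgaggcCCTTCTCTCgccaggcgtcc
RPS27, chr1:153990752-153990781, plus strand: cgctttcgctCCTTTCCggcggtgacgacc
RPS27L, chr15:63157458-63157487, minus strand: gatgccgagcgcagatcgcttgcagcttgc
RPL22, chr1:6199576-6199605, minus strand: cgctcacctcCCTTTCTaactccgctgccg
RPL22L1, chr3:170870176-170870205, minus strand: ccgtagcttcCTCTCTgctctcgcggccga
RPL3, chr22:39319604-39319633, minus strand: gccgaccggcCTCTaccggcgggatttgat
RPL10A, chr6:35468391-35468420, plus strand: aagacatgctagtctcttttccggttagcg
The run was 9 bases long in RPLP0, 7 in RPS27 and RPL22, 6 in RPL22L1 and 4 in RPL3, and the annotated first base of RPS27L and RPL10A was not a C or T. When the motif could begin up to 5 bases to either side, RPL10A and RPL3 had a match and RPS27L did not. A match describes these letters at the annotated start and does not show where transcription began in these cells.

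RPS27L and RPS27 are the pair in which the largest change was seen, and their coding sequences show that reads of the paralogs can be told apart. Both coding sequences are 255 bases long and encode 84 residues. They differ at 56 bases in 48 codons, but only at 3 residues, so that most of the differences are silent. The 2 sequences are given from start to stop codon on GENCODE 44 transcripts (GRCh38), with the bases that differ in capitals.
RPS27L: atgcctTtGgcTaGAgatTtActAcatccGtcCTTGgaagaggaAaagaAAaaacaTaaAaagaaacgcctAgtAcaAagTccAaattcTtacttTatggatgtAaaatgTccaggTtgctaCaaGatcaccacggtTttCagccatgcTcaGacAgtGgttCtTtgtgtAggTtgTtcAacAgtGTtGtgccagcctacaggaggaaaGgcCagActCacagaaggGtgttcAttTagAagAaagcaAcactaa
RPS27: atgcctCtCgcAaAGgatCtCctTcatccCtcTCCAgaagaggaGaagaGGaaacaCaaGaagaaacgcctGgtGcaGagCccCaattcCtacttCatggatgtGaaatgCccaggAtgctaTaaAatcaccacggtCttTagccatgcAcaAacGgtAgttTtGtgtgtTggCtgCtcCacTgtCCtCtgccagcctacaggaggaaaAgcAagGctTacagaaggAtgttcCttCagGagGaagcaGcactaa
The longest stretch without a difference is 20 bases, and the 2 canonical transcripts share no run of 50 bases (0 shared). The coding sequences of RPL22L1 and RPL22 were 65.4% identical with 0 shared runs of 50 bases. By contrast, RPL36AL and RPL36A were 90.0% identical and shared 14 such runs, so the split of reads between these 2 genes is less certain.

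The libraries held between 32979521 and 40967880 counts, and counts below are normalized by TMM to the mean library. CDKN1A and MDM2, p53 targets used as a check of the treatment, had log2 fold changes of 2.93 and 2.22 (edgeR adjusted p = 0.000445 for each), and all 8 genes of a p53 target list were called higher, a count of 5 without NT library 3, without OXA library 1 or without OXA library 2. The epithelial markers EPCAM, CDH1, KRT8, KRT18, KRT19, CDX2 and VIL1 were all detected. VIL1 was the lowest of them, with mean normalized counts of 79.2 in NT and 60.7 in OXA. Among markers of other cells, PTPRC, CD3E, ALB and HBB had means between 0 and 1.39. PECAM1 had 1.95 in NT and 4.51 in OXA, COL3A1 5.08 and 5.05, and VWF 19.8 and 18.4. The collagen gene COL1A1, with 175 in NT and 215 in OXA, lay above VIL1. NT library 1 stood apart from the other NT libraries, with a chi-square per gene of 79.1 and 72.0 against them where the other pairs within a group lay between 18.3 and 28.1. Libraries of the same number deviated together, so a second fit took the replicate number as a block, and its value is given wherever it changes a call. Sequencing of a bulk lysate cannot tell fewer cells with an mRNA from less of it per cell.

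Most ribosomal protein mRNAs did not pass the test for a difference between OXA and NT, and 3 did. Of the 85 genes, 82 passed the filter on low counts. RPS27L was called higher in OXA, and RPL22L1 and RPL10A were called lower, at an adjusted p under 0.05 by edgeR's quasi-likelihood test over all 13727 genes. These 3 are 3.66% of the 82, where 5.07% of all genes tested were called (2.78% higher and 2.29% lower). With the further requirement of a fold change over 1.5, RPS27L and RPL22L1 remained, and 3.41% of all genes passed. At an unadjusted p under 0.05 there were 7 ribosomal protein genes, against 21.7% of all genes.

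The log2 fold changes ran from -1.40 to 1.64 with a median of 0.080, where the median of all genes tested was 0.023. Of the 82, 61 (74.4%) lay within 0.2 of 0 on the log2 scale, beside 51.7% of all genes. The median was 0.046 for the 50 tested genes of the large subunit, of which 0 were called higher and 2 lower, and 0.13 for the 32 of the small subunit, of which 1 was called higher and 0 lower. In a fit with the block and with GC and length trends removed, the medians were -0.0040 and 0.0073, with 7 higher and 16 lower in the large and 4 higher and 4 lower in the small subunit. These are 23 of the 50 and 8 of the 32, beside 45.7% of all genes in that fit. Normalized counts of the 2 groups did not overlap for 10 of the 82 genes (12.2%), 8 of them with OXA above NT, among them RPS27L, RPL26L1, RPSA and RPL27, and 2 with OXA below NT (RPL22L1 and RPL10A). Among all genes tested this share was 28.9%, split into 14.5% above and 14.4% below.

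**Figure D1:**
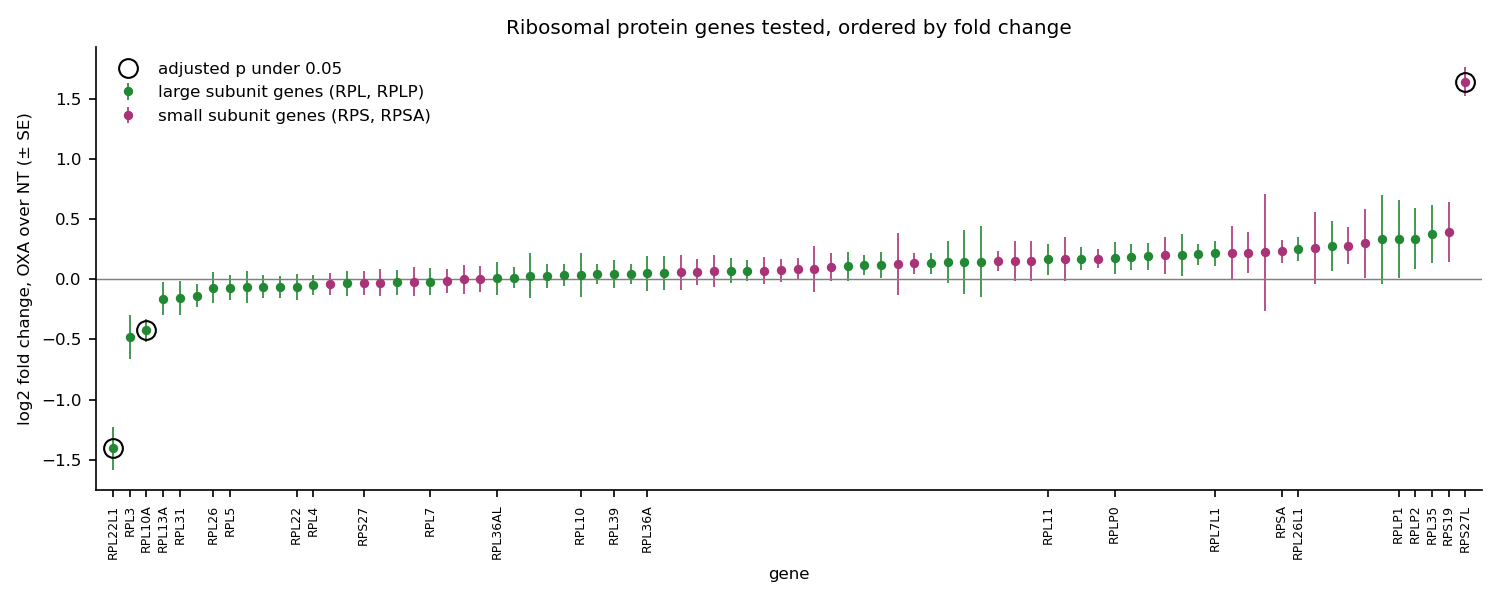
Log2 fold change (OXA over NT) of the 82 ribosomal protein genes tested, ordered by size, with bars for the standard error of the edgeR fit and colours for the subunit. Symbols on the axis are those of genes chosen to be named, and rings mark the genes with an adjusted p under 0.05, which are RPL22L1 at -1.40, RPL10A at -0.42 and RPS27L at 1.64, while 61 of the 82 lie within 0.2 of 0.

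With the replicate number as a block, 14 ribosomal protein genes were called (17.1%), beside 23.0% of all genes tested. The 11 called higher were RPS27L, RPS19, RPL35, RPL26L1, RPSA, RPL7L1, RPL27, RPL24, RPL27A, RPS20 and RPL11, and the 3 called lower were RPL22L1, RPL3 and RPL10A. Apart from RPS27L, the genes called higher had log2 fold changes between 0.17 and 0.44 in this fit. For 37 of the 82 genes (45.1%) all 3 differences between same-numbered libraries were above 0, and for 9 (11.0%) all 3 were below 0, where the shares of all genes were 33.8% and 27.6%. When a further term took out how each library varied with GC content and length, 31 were called (37.8%), 11 higher and 20 lower, beside 45.7% of all genes, and the median of the 82 was 0.0044. Of the genes called higher with the block alone, RPL35, RPL27, RPL24 and RPS20 were not called in that fit.

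RPS27L, the p53-responsive paralog of RPS27 (ENSG00000185088, chr15:63125872-63158021, minus strand, GRCh38), rose 3.12-fold. It had 1379, 1159.8 and 1487 normalized counts in NT libraries 1 to 3 and 4439, 3777 and 4346 in OXA libraries 1 to 3. The lowest OXA value lay far above the highest NT value. The means were 1342 ± 167 and 4187 ± 359 (SD, n = 3), and the log2 fold change was 1.64 with a standard error (SE) of 0.12 (edgeR adjusted p = 0.00167). It was the rise ranked 66 from the highest among all 13727 genes, and its p-value ranked 10. The differences between libraries 1, 2 and 3 of the same number were 1.69, 1.70 and 1.55 on the log2 scale. Leaving out any 1 of the 6 libraries gave log2 fold changes between 1.52 and 1.71, all called, with edgeR adjusted p no higher than 0.0168.

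RPS27 itself (ENSG00000177954, chr1:153990762-153992155, plus strand), which encodes the zinc-finger protein eS27 of the 40S subunit, did not pass the test. It gave 24848, 20772 and 21521 normalized counts in NT and 23373, 20430.3 and 21865 in OXA. The groups overlapped throughout, and the log2 fold change was -0.032 with an SE of 0.10 (edgeR adjusted p = 0.892). In the blocked fit with GC and length trends removed it was -0.23 (edgeR adjusted p = 0.00318).

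RPL22L1, the paralog of RPL22 (ENSG00000163584, chr3:170864875-170870208, minus strand), was 2.65-fold lower in OXA. Its normalized counts were 7366, 5884 and 6918 in NT and 2319, 2059 and 3241 in OXA. The highest OXA library, number 3, still lay below the lowest NT library, number 2. The means were 6723 ± 760.0 and 2539.5 ± 622 (SD, n = 3), and the log2 fold change was -1.40 with an SE of 0.18 (edgeR adjusted p = 0.00802). Among all genes tested it ranked 26 from the lowest fold change. The differences within same-numbered libraries were -1.67, -1.52 and -1.09, the smallest being that of libraries 3. The call held in 5 of the 6 fits that leave out a library. Without OXA library 1 the log2 fold change was -1.34 and the edgeR adjusted p 0.0584.

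RPL22 (ENSG00000116251, chr1:6185020-6209389, minus strand), a 60S protein known to bind structured RNA, showed no difference beyond the spread of its libraries. Its normalized counts were 21124, 18091 and 17223 in NT and 19460.3, 17803 and 16756 in OXA. NT and OXA libraries of the same number lay close together, and the log2 fold change was -0.063 with an SE of 0.11 (edgeR adjusted p = 0.79). Its sign turned, to 0.026, with the authors' gene-specific factors.

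**Figure D2:**
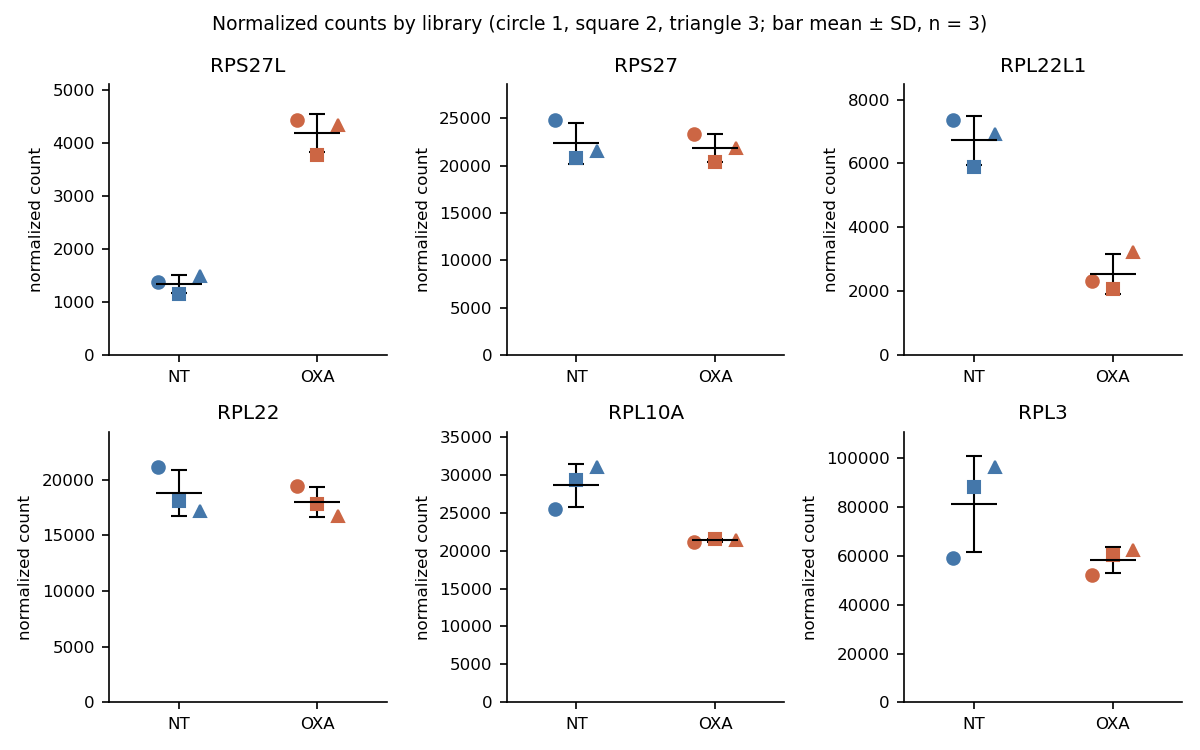
Normalized counts of RPS27L, RPS27, RPL22L1, RPL22, RPL10A and RPL3 in each of the 6 libraries, with circles, squares and triangles for libraries 1, 2 and 3 and lines for the mean ± SD (n = 3). RPS27L is higher in every OXA library and RPL22L1 and RPL10A lower in every OXA library than in any NT library, whereas RPS27, RPL22 and RPL3 overlap between the groups.

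The balance between paralog and partner was read from the share of the paralog in the summed raw counts of the pair, which within 1 library does not depend on depth. RPS27L made up 5.26%, 5.29% and 6.46% of its pair in NT and 16.0%, 15.6% and 16.6% in OXA. RPL22L1 made up 25.9%, 24.5% and 28.7% of its pair in NT and 10.6%, 10.4% and 16.2% in OXA. The 2 shares thus moved in opposite directions, by 10.4 and -13.9 percentage points of the mean, with no overlap between the groups. The exact permutation test (two-sided, 3 against 3 libraries) gave p = 0.1 for each, the smallest p this design allows, and 0.125 after Benjamini-Hochberg adjustment over the 5 pairs. The exact sign-flip test over same-numbered libraries gave p = 0.25 for each, again the smallest possible.

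The other paralogs had smaller fold changes. RPL7L1, a relative of RPL7 known from the nucleolus, gave 11302, 9499.7 and 10049 normalized counts in NT and 13011, 10792 and 12013 in OXA. Its groups overlapped, although each OXA library was above the NT library of its number. Its log2 fold change was 0.22 with an SE of 0.11 (edgeR adjusted p = 0.295, and 0.0263 with the block). Its share of the pair with RPL7 went from 12.0% ± 0.324 to 13.9% ± 0.789 (SD, n = 3, exact permutation p = 0.1).

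RPL26L1, whose protein differs from that of RPL26 at 2 residues, gave 1020.2, 1062 and 1194 normalized counts in NT and 1297, 1288 and 1323 in OXA. All OXA libraries lay above all NT libraries by a small margin. The log2 fold change was 0.25 with an SE of 0.10 (edgeR adjusted p = 0.194, and 0.0497 with the block). Its share of the pair with RPL26 was 3.45% ± 0.690 in NT and 4.24% ± 0.448 in OXA (SD, n = 3, exact permutation p = 0.2). RPL36AL did not pass the test (log2 fold change 0.0098, SE 0.14, edgeR adjusted p = 0.979), and its sign turned under 4 alternatives that keep all libraries. Its share of the pair with RPL36A was 29.6%, 29.6% and 30.1% in NT and 29.3%, 28.8% and 29.5% in OXA, without overlap but with a difference of -0.564 percentage points (exact permutation p = 0.1).

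The partners RPL7, RPL26, RPL36A, RPL39 and RPL10 had log2 fold changes between -0.070 and 0.048, with edgeR adjusted p between 0.806 and 0.941, and each changed sign when a library was left out. In the blocked fit with GC and length trends removed, RPL26 (-0.18, edgeR adjusted p = 0.002) and RPL39 (-0.091, edgeR adjusted p = 0.0399) were called lower. RPL7, RPL36A and RPL10 were not called there. The remaining paralogs, known mainly from muscle or testis, were hardly detected. RPL3L had between 2 and 11 raw counts per library and did not pass the filter, and RPL10L and RPL39L had 0 counts in all 6 libraries. For a single library taken alone, a count of 0 allows up to 3 counts by counting error. RPL39L shares 18 runs of 50 bases with RPL39, and RPL10L shares 1 with RPL10, and the part of read assignment in these zeros was not tested.

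**Figure D3:**
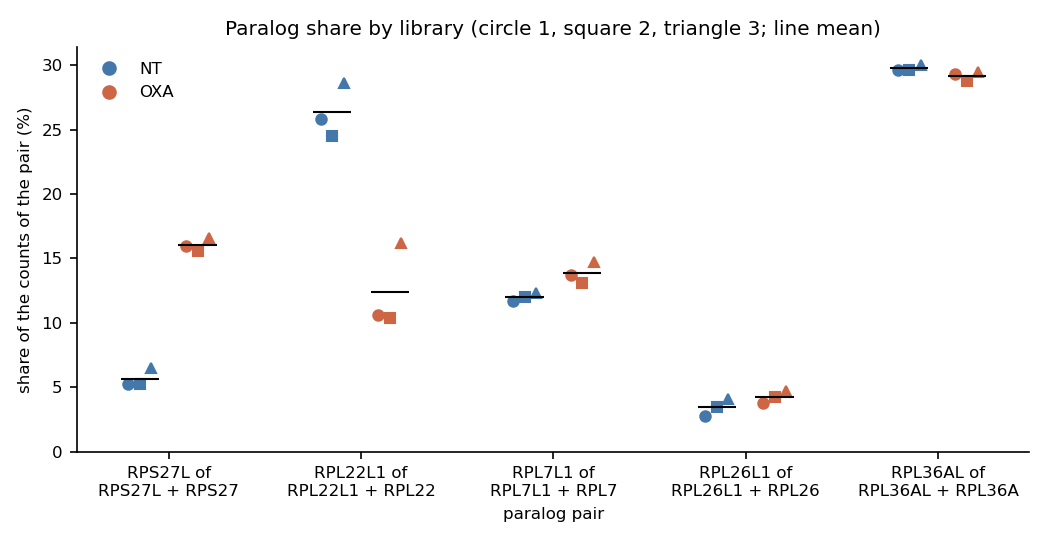
Share (%) of the paralog in the summed raw counts of each of 5 paralog pairs, with circles, squares and triangles for libraries 1, 2 and 3 and a line at the mean of each group. RPS27L goes from 5.67% to 16.0% of its pair and RPL22L1 from 26.4% to 12.4%, while RPL7L1, RPL26L1 and RPL36AL move by less than 2 percentage points.

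Among the widely used genes, RPL10A and RPL3 had the lowest fold changes, and whether each was called depended on the fit. RPL10A (ENSG00000198755, chr6:35468401-35470785, plus strand) encodes uL1, the protein of the mobile L1 stalk of the 60S subunit. Its normalized counts were 25451, 29301 and 30995 in NT and 21172, 21457 and 21359.9 in OXA. The OXA libraries lay close together, all of them below the lowest NT library, number 1. The log2 fold change was -0.42 with an SE of 0.096 (edgeR adjusted p = 0.0499, and 0.011 with the block). The call was kept in 1 of 6 fits that leave out a library, the one without NT library 1 (log2 fold change -0.50, edgeR adjusted p = 0.00829). In the other fits the edgeR adjusted p reached 0.192, without OXA library 1.

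RPL3 (ENSG00000100316, chr22:39312882-39320389, minus strand) encodes uL3, a protein beside the peptidyl transferase centre of the 60S subunit. It gave 59062, 88250.0 and 96249.9 normalized counts in NT and 52212, 60159 and 62252 in OXA. NT library 1 lay within the range of the OXA libraries, and the other NT libraries far above it. The log2 fold change was -0.48 with an SE of 0.18 (edgeR adjusted p = 0.174). It was called lower with the block (-0.45, edgeR adjusted p = 0.0233) and without NT library 1 (-0.66, edgeR adjusted p = 0.0054).

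Genes with a known part in the signal from the ribosome to p53 were described as a list of 16 ribosomal proteins reported to bind MDM2. Of these, RPS27L was called higher, 0 were called lower, and the median log2 fold change was 0.048. That is 6.25% of the list, beside 5.07% of all genes tested. With the block 3 were called higher, RPL11 and RPS20 being added, which is 18.8% of the list beside 23.0% of all genes. With GC and length trends removed as well, 3 were called higher, RPS20 no longer among them, and 5 lower (8 of 16, beside 45.7% of all genes). RPL5 gave 56201, 48272 and 47808 normalized counts in NT and 52171, 47443 and 45553 in OXA (log2 fold change -0.069, SE 0.10, edgeR adjusted p = 0.751). RPL11 had 33451, 30293 and 25880.4 in NT and 37701, 33195 and 29727 in OXA (log2 fold change 0.17, SE 0.13, edgeR adjusted p = 0.512, and 0.0488 with the block). Each of the 2 genes overlapped between the groups, and RPL11 was higher in OXA within each pair of same-numbered libraries. In the blocked fit with GC and length trends removed, RPL5 was called lower (-0.12, edgeR adjusted p = 0.0203) and RPL11 higher (0.094, edgeR adjusted p = 0.0366).

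The proteins of the stalk that recruits translation factors to the 60S subunit are encoded by RPLP0, RPLP1 and RPLP2. RPLP0, which also had the highest level per kb of the set, gave 91100.4, 123263 and 128155 normalized counts in NT and 123267, 133267 and 130669 in OXA. NT library 1 was the lowest of the 6, and the other libraries lay close together. The log2 fold changes of RPLP0, RPLP1 and RPLP2 were 0.18, 0.33 and 0.34, with edgeR adjusted p of 0.512, 0.607 and 0.504, and none passed the test with the block. With GC and length trends removed as well, RPLP1 was called higher (0.34, edgeR adjusted p = 0.0176).

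RPS19 and RPL35 had the highest fold changes after RPS27L. RPS19, the gene most often mutated in Diamond-Blackfan anaemia, gave 12888, 23280.0 and 25831 normalized counts in NT and 21924, 28769 and 30697 in OXA. RPL35, which encodes uL29 at the exit of the peptide tunnel, had 7650.5, 14875 and 11481 in NT and 12793, 18099 and 13307 in OXA. In both, NT library 1 was the lowest of the 6, and the groups overlapped. The log2 fold change was 0.39 for RPS19 (SE 0.25, edgeR adjusted p = 0.422, and 0.0352 with the block) and 0.38 for RPL35 (SE 0.24, edgeR adjusted p = 0.419, and 0.0429 with the block). With GC and length trends removed as well, RPL35 lost its call (0.088, edgeR adjusted p = 0.0906) and RPS19 kept it (0.31, edgeR adjusted p = 0.000998). Of 19 Diamond-Blackfan anaemia genes among the ribosomal protein genes, 0 were called by edgeR and 0 by DESeq2 (1 at an unadjusted edgeR p under 0.05), with a median log2 fold change of 0.13. With the block 4 were called higher and 0 lower, 21.1% of the list beside 23.0% of all genes. Once GC and length trends were removed too, 3 were called higher and 5 lower, and the median turned to -0.0070. That is 42.1% of the list, beside 45.7% of all genes in that fit.

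RPSA, which encodes uS2 of the 40S subunit, gave 78582, 82446 and 94148 normalized counts in NT and 100494, 95232 and 103852 in OXA. All OXA libraries lay above all NT libraries, by a narrow margin at the closest. The log2 fold change was 0.23 with an SE of 0.10 (edgeR adjusted p = 0.227, and 0.0389 with the block). RPL13A and RPL31, next in order after RPL3 and RPL10A among the lowest fold changes, had -0.16 (edgeR adjusted p = 0.546) and -0.15 (edgeR adjusted p = 0.587). Both were called lower in the blocked fit with GC and length trends removed, at -0.29 (edgeR adjusted p = 0.000947) and -0.14 (edgeR adjusted p = 0.0147).

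Levels differed widely between members. Divided by the length of the canonical transcript, the mean over all 6 libraries was highest for RPLP0, RPS18 and RPS2, with 110064, 98711 and 93814 normalized counts per kb. It was lowest among the tested genes for RPS27L with 452, followed by RPL26L1 with 1658, RPL22L1 with 2435 and RPL7L1 with 2470 normalized counts per kb, all of them paralogs. The canonical transcript of RPS27L is 6110 bases long, so its value per kb depends strongly on which transcript was made. The same limit holds for other genes with long canonical transcripts, among them RPL7L1 with 4499, RPL14 with 7136 and RPL37 with 7573 bases. The GC content and length used elsewhere were read from the same transcripts.

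The spread between libraries also differed between members. The median coefficient of variation was 11.7% in NT and 8.93% in OXA, beside 13.1% and 9.39% for all genes tested. Over all 6 libraries RPL4, RPL7A and RPL41 varied least, with coefficients of 3.93%, 4.01% and 4.66%. RPLP0, RPL13A and RPS18, often used as reference genes in quantitative PCR and chosen here after their values had been seen, had 12.7%, 13.3% and 8.51%. Besides RPS27L and RPL22L1, the most variable was RPS28 with 42.2%, which gave 1451, 6355 and 5278 normalized counts in NT and 3516, 6916 and 4869 in OXA. Its lowest value was again that of NT library 1.

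The deviation of NT library 1 followed the base composition of the transcripts. Over the 82 genes, the log2 difference between NT library 1 and the mean of NT libraries 2 and 3 had a Pearson r of -0.77 with GC content, a description across genes that share the same 3 libraries. In the third of the genes with the lowest GC content (39.9% to 45.2%) the median difference was 0.13, and in the third with the highest (50.8% to 63.6%) it was -0.64. In NT library 1, 22 genes lay more than 0.5 below, led by RPS28 at -2.00, whereas OXA library 1 had 3 such genes and an r of -0.67. Fold changes moved with GC content too, with a Spearman rho of 0.46 over the 82 genes. With the block used and the GC and length trends removed, rho was 0.016, a drop that the removal is built to give. The trends were fitted to each library without regard to group, so any group difference that goes with GC content was removed too. Length had a rho of 0.068 with the deviation of NT library 1. The part of GC content in the fold change of any single gene was not tested.

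**Figure D4:**
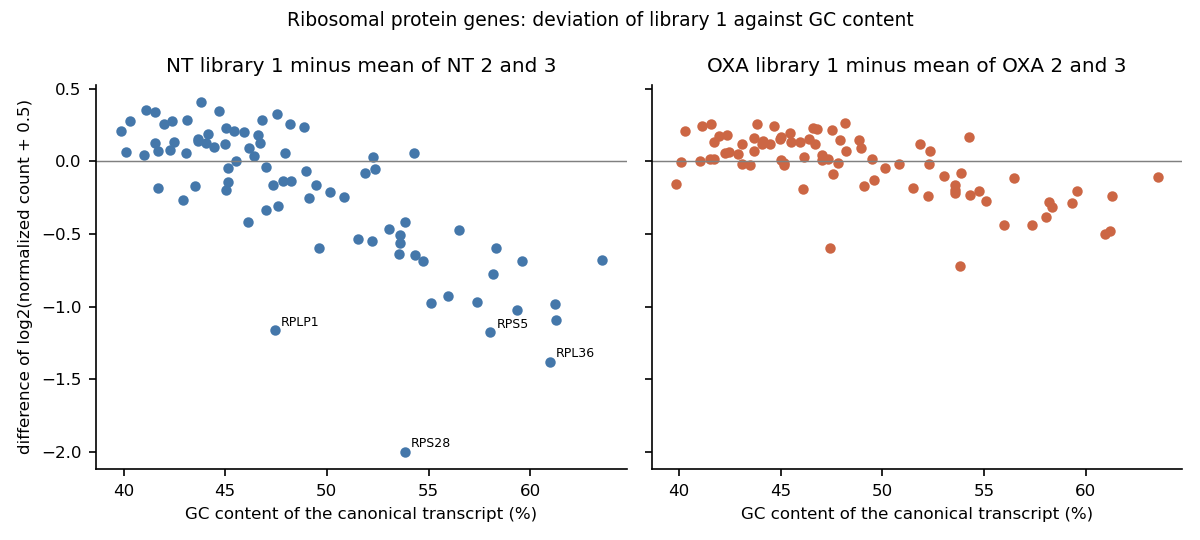
Difference in log2(normalized count + 0.5) between library 1 and the mean of libraries 2 and 3 of its group, against the GC content (%) of the canonical transcript, for the 82 ribosomal protein genes tested (NT left, OXA right). In NT the differences fall from a median of 0.13 in the third of genes with the lowest GC content to -0.64 in the third with the highest, with RPS28 lowest at -2.00.

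The share of all counts taken by ribosomal protein genes was compared as a measure of the whole set. It was 6.69%, 7.38% and 7.50% in NT and 7.21%, 7.47% and 7.24% in OXA. NT library 1 was the lowest, and the other libraries lay within 0.3 percentage points of each other. The means were 7.19% ± 0.438 and 7.31% ± 0.144 (SD, n = 3), a difference of 0.116 percentage points (exact permutation test, two-sided, p = 0.9). Without NT library 1 the difference was -0.134 percentage points. For the large subunit the means were 4.46% in NT and 4.41% in OXA (exact permutation p = 0.8), and for the small subunit 2.74% and 2.89% (exact permutation p = 0.2).

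A few ribosomal proteins carry symbols outside the rule and were read beside the set. FAU, which encodes eS30 fused to a ubiquitin-like protein, gave 3859, 7638 and 6993 normalized counts in NT and 7889.7, 10153 and 8299.7 in OXA, with no overlap between the groups. Its log2 fold change was 0.51 with an SE of 0.24 (edgeR adjusted p = 0.271, and 0.0444 with the block). RACK1, a scaffold on the 40S subunit, had a log2 fold change of 0.064 (SE 0.11, edgeR adjusted p = 0.796).

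Genes that work with the ribosomal proteins gave no calls without the block when all 6 libraries were used, by edgeR, DESeq2 or limma-voom (0 each), and 1 call, BCCIP, without NT library 1. Of 14 translation factors and other genes with TOP mRNAs, 0 were called by edgeR, 0 had an unadjusted p under 0.05, and the median log2 fold change was 0.033. With the block, 4 of them were called lower, namely EIF4B, PABPC1, HNRNPA1 and NAP1L1, with log2 fold changes between -0.28 and -0.20. These are 28.6% of the list, where 23.0% of all genes were called with the block (12.1% higher and 10.9% lower). With GC and length trends removed as well, 3 were called higher and 4 lower (7 of 14, beside 45.7% of all genes in that fit). EEF1A1, the elongation factor that brings aminoacyl-tRNA to the ribosome, gave 534493 ± 46728 normalized counts in NT and 549795 ± 39114 in OXA (SD, n = 3, edgeR adjusted p = 0.867). In the blocked fit with GC and length trends removed, EEF1A1 was called higher (log2 fold change 0.11, edgeR adjusted p = 0.0417).

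Of 10 chaperones and importers dedicated to ribosomal proteins, 0 were called and 0 had an unadjusted p under 0.05, with a median log2 fold change of 0.21. With the block, GRWD1, a chaperone of uL3, and BCCIP, a chaperone of uL14, were called higher at 0.24 and 0.25, which is 2 of the 10 beside the same 23.0% of all genes. GRWD1 lost its call when GC and length trends were removed (0.096, edgeR adjusted p = 0.179). Of 12 regulators of TOP mRNAs and of mTORC1 output, 0 were called and 3 had an unadjusted p under 0.05, with a median of 0.010. With the block, RPTOR, the mTORC1 subunit that recruits substrates, was called higher at 0.44, and EIF4EBP2, TIA1 and TIAL1 were called lower at -0.32, -0.30 and -0.25, in all 33.3% of the list beside 23.0% of all genes. LARP1 and MTOR had log2 fold changes of 0.069 and 0.026 without a call in either fit.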

How the data were processed

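Poly(A) RNA of 3 NT and 3 OXA samples was sequenced. The authors' processing notes name Trimmomatic 0.32, STAR 2.7.5b, RSEM 1.3.3, DESeq2 2.13 and GRCh38. The program that made the raw counts, the annotation and the strand setting are not given in the sources used here. The authors deposited raw counts, used here, and a normalized signal, the raw count times a factor that differed between genes and libraries, used only as an alternative. Groups and replicate numbers came from the labels.

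Genes were filtered with filterByExpr (minimum count 10, minimum total 15), normalized by TMM and compared by edgeR's quasi-likelihood test (edgeR 4.0.16, limma 3.58.1, R 4.3.3) on all 13727 genes left, with Benjamini-Hochberg adjustment. A gene was called at an adjusted p under 0.05. The standard error was the log2 fold change divided by the square root of F. In counts simulated for the comparison of OXA with NT, all 200 changed genes were recovered among 13716 genes, with 10 false calls. Recovery and false calls in the real libraries were not tested. Positions, lengths and GC content came from GENCODE 44, and 68 of 85 members matched the RefSeq promoter table. Pseudogene reads, and those of the read-through genes RPL17-C18orf32, RPL36A-HNRNPH2 and RPS10-NUDT3, could have been split differently in counting. Intervals and limits cover counting error only.

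Deviations of same-numbered libraries from their group means correlated at 0.55, 0.54 and 0.31 over all genes tested (different numbers -0.47 to 0.090), all over the limit of 0.1, so the numbers were taken to pair the libraries. What a number stands for is not given in the sources used here. Alternatives were RLE, upper quartile and authors' factors, TMM without ribosomal protein genes, other filters, DESeq2 1.42.0, limma-voom, the replicate block alone and with GC and length trends removed, and each library left out in turn.

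The genes named are the paralogs and their partners, the P stalk, RPL5 and RPL11, all called members, the 5 highest and 5 lowest fold changes, the 3 most abundant, FAU, RACK1, 2 checks and called genes of the other lists; a few more were named after their values were seen, and some results are not reported here. The members and lists were chosen with earlier results of these data known.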

Additional observations from a re-analysis of the deposited data

How the results depend on the processing

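Of 36 genes chosen to be named, 26 kept their direction under all 16 alternatives, and 9 of these also kept their side of the threshold. The 36 included all 8 genes of the p53 target list, each of which kept its direction. Among the 9 were the p53 targets CDKN1A, MDM2, SESN1, TP53I3 and ZMAT3. The others of the 9 were RPS27L, called throughout, and RPL4, RPLP0 and RPLP2, called in no fit. The median log2 fold change of the ribosomal protein genes, 0.080, lay between 0.039 and 0.095 when a library was left out and was 0.0044 in the blocked fit with GC and length trends removed. The count of ribosomal protein genes called higher went from 1 to 11 with the replicate block, alone or with the trends removed, and was 1 with each library left out. The genes were not all the same. With the trends removed, RPL35, RPL27, RPL24 and RPS20 lost their call, and RPL37A, RPL14, RPS26 and RPLP1 gained one. Besides the genes it called higher, the block alone added RPL3 to the genes called lower and changed the call of no other ribosomal protein gene. The count called lower went from 2 to 1 with the authors' factors or limma-voom, to 20 with the block and the trends removed, and to between 0 and 3 with a library left out (3 without NT library 1, 0 without OXA library 1). Over all genes, the 381 called higher became 241 with the authors' factors, 636 with DESeq2, 1664 with the block, 3212 with the trends removed as well, and 66 to 623 with a library left out. The 315 called lower became 493 with upper quartile factors, 200 with the authors' factors, 635 with DESeq2, 1493 with the block, 3040 with the trends removed as well, and 19 to 571 with a library left out. In the accompanying lists, the counts of 0 higher and 0 lower became 5 and 7 with the block, 12 and 9 with the trends removed as well, and 0 to 1 higher with a library left out (1 without NT library 1). Signs turned for RACK1 (-0.057) and RPL39 (-0.091) with the block and the trends removed, for RPL10 with upper quartile factors (-0.000638), for RPL22 with the authors' factors (0.026), and for RPL36AL with upper quartile factors (-0.030), the authors' factors (-0.017), no filter (-0.020) and the trends removed (-0.050). With a library left out, log2 fold changes ran from -0.041 to 0.094 for RACK1, from -0.12 to 0.20 for RPL10, from -0.16 to 0.029 for RPL22, from -0.18 to 0.054 for RPL26, from -0.087 to 0.18 for RPL36A, from -0.12 to 0.13 for RPL36AL, from -0.077 to 0.11 for RPL39, from -0.14 to 0.011 for RPL5, from -0.11 to 0.078 for RPL7 and from -0.12 to 0.050 for RPS27. The difference in the share of library counts ran from -0.134 to 0.271 percentage points. Except for fits on fewer samples, the cause of these moves was not tested. The lowest raw count of a tested member was 998, of RPL26L1 in NT library 1, and the part of depth in these moves was not tested.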
